A study of Mus musculus with 18 samples.

Results

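The regions described here are the stretches of the mouse autosomes that were called as H3K27me3 peaks in exactly 2 or 3 of 12 peak lists. Peaks of the 12 lists on chromosomes 1 to 19 were merged wherever they overlapped by at least 1 bp, which gave 4948 regions. Of these, 695 were overlapped by peaks of 2 lists (433 regions) or 3 lists (262 regions), so the members were chosen by the number of lists that called them, and this count is described and not tested. For comparison, 1531 regions were called in 1 list, 2285 in 4 to 11 lists and 437 in all 12.

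H3K27me3 was profiled by CUT&Tag, in which a transposase tethered to the antibody cuts the DNA around the mark, in headfolds of mouse embryos at embryonic day 8.5. The headfold is the rostral tissue that gives rise to the brain, and each reaction held 1 headfold. All embryos carried Gulo-/-, which removes the last enzyme of vitamin C synthesis. The 4 groups were 129 with vitamin C (3.3 g/l in the drinking water), 129 without it, B6 with vitamin C and B6 without it, and each had 3 libraries from 2 female embryos and 1 male embryo. The 3 embryos of B6 with vitamin C carried the same pregnancy code. All library numbers of 129 precede those of B6, so the library series and the background cannot be told apart. Replicates are numbered 1, 2 and 3 in 129 and 1, 2 and 4 in B6. Because a headfold is a mixture of cells, fewer cells with the mark and less mark per cell cannot be told apart.

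Polycomb repressive complex 2 places H3K27me3 on promoters and gene bodies of silent developmental genes. Its broadest domains lie over transcription factor genes that are off in the tissue, and CpG-rich promoters are its usual sites of recruitment. In the forebrain, genes of the anterior neural plate are active while Hox genes and mesoderm genes stay silent.

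The lists held 748 to 4726 peaks each, and the reads behind them are unknown, so a region missing from a list may lie below what that library could detect. Markers of the tissue were checked. Genes of posterior or mesodermal fate (T, Cdx2, Hoxb9, Hoxc9, Hoxd10 and Myod1) lay in regions of all 12 lists. Of the anterior neural plate genes, Hesx1 had 0 lists, Sox2 1, Otx2 3, Zic2 6, Six3 11 and Sox1 12.

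Promoters of 4 genes are printed because they show the range of promoter sequence in these regions. All lie wholly inside a region of 2 or 3 lists and come from RefSeq on GRCm38.p6, the assembly that mm10 stands for. Each runs 5′ to 3′ on the gene's strand over 300 bases, of which the last 50 follow the start, and capitals mark each CG. Foxo1 (forkhead factor of insulin signalling; chr3:52268087-52268386, plus strand) has 31 CG, the most of the 8 promoters selected. Atoh8 (basic helix-loop-helix factor; chr6:72235528-72235827, minus strand) has 24 CG and lies in the widest region at a transcription factor gene of the basic helix-loop-helix list. Otx2 (homeobox factor of the forebrain and midbrain; chr14:48665060-48665359, minus strand) has 16 CG and is the 1 homeobox gene assigned to these regions. Ascl4 (basic helix-loop-helix factor of the achaete-scute family; chr10:85927152-85927451, plus strand) has 3 CG, the fewest of the 8.
Foxo1: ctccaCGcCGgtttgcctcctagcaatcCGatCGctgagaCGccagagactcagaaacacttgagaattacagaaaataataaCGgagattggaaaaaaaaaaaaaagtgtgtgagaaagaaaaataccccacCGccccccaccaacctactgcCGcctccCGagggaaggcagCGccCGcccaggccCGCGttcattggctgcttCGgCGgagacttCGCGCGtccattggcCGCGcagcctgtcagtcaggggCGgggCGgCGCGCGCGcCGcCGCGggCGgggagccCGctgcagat
Atoh8: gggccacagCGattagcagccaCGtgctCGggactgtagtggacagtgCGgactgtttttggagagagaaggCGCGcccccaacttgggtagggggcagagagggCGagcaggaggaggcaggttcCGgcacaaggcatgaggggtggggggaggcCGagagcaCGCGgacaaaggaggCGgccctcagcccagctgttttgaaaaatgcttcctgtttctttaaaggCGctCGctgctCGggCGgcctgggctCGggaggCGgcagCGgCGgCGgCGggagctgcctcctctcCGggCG
Otx2: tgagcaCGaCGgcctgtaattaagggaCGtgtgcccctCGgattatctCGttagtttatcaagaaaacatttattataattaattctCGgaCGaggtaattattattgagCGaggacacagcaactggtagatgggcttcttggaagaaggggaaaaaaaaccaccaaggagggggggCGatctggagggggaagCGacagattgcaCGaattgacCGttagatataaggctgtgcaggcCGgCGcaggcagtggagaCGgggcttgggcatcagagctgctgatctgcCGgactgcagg
Ascl4: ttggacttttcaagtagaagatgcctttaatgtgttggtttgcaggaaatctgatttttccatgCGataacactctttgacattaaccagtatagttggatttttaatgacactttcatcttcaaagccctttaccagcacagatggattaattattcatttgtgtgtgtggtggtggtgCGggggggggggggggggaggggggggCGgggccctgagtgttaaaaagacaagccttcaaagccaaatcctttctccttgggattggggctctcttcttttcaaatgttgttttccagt

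Promoters in the 695 regions were rich in CG as a class. Of the 374 protein-coding genes whose most shared region was called in 2 or 3 lists, 288 had a promoter in the RefSeq table. The 337 coding promoters that started in these regions had a median of 20 CG per 300 bases (interquartile range 12 to 29), and 81.6% had at least 10. Across all 20085 coding promoters of chromosomes 1 to 19 the median was 14 and the share 57.9%, and in promoters outside every region it was 12 and 54.4%. Promoters in regions of 4 to 11 lists (median 20, share 78.6%) and of all 12 lists (median 19, share 80.5%) were about as rich. In regions of 1 list the median was 17 and the share 75.8%. The letters TATAAA, on either strand, occurred in 7.42% of promoters in the 695 regions and in 12.7% of all coding promoters. The other regions had similar shares: 6.04% in 1 list, 8.39% in 4 to 11 lists and 8.46% in all 12. A match to these letters describes the sequence only.

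The regions also held 8 miRNA genes with a hairpin and a mature form in the RefSeq sequence table, and the gene table adds Mir1942 and Mir692-3. Mir34b and Mir34c, which form a cluster known as targets of p53, lay together in 1 region at Btg4 and Hoatz (chr9:51099964-51105438) that was called in 129 with vitamin C replicate 1 and in 129 without vitamin C replicates 1 and 3. Their mature forms are printed 5′ to 3′, with the seed (bases 2 to 8) in capitals, because the 3p arms of the cluster share a seed while the 5p arm of Mir34b carries another.
mmu-miR-34b-3p: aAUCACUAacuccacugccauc
mmu-miR-34c-3p: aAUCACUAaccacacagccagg
mmu-miR-34b-5p: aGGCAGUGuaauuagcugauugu
The region spanned 5.475 kb and had a mean percentile of 42.7, where the percentile is the rank of a peak's maximum signal among all peaks of its own list, averaged over the lists that called the region. Maximum signals were whole numbers with many ties, so percentiles fall in steps.

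The 695 regions were spread very unevenly over the libraries. In 129 with vitamin C, replicates 1, 2 and 3 called 181, 1 and 40 of them. In 129 without vitamin C the numbers were 173, 0 and 289. In B6 with vitamin C, replicate 1 called 58 broad and 50 narrow regions (split at 1 kb), and replicates 2 and 4 called 175 and 491. In B6 without vitamin C, replicates 1, 2 and 4 called 143, 1 and 50. The ranges of every pair of groups overlapped. B6 with vitamin C replicate 4 called 70.6% of the regions, 129 without vitamin C replicate 3 called 41.6%, and 556 of the 695 were in at least 1 of these lists. The 3 libraries with 0 or 1 region had lists of 1388 (129 without vitamin C replicate 2), 1807 (129 with vitamin C replicate 2) and 748 peaks (B6 without vitamin C replicate 2), which were the 3 shortest lists. These counts follow from the rule and were not tested.

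**Figure D1:**
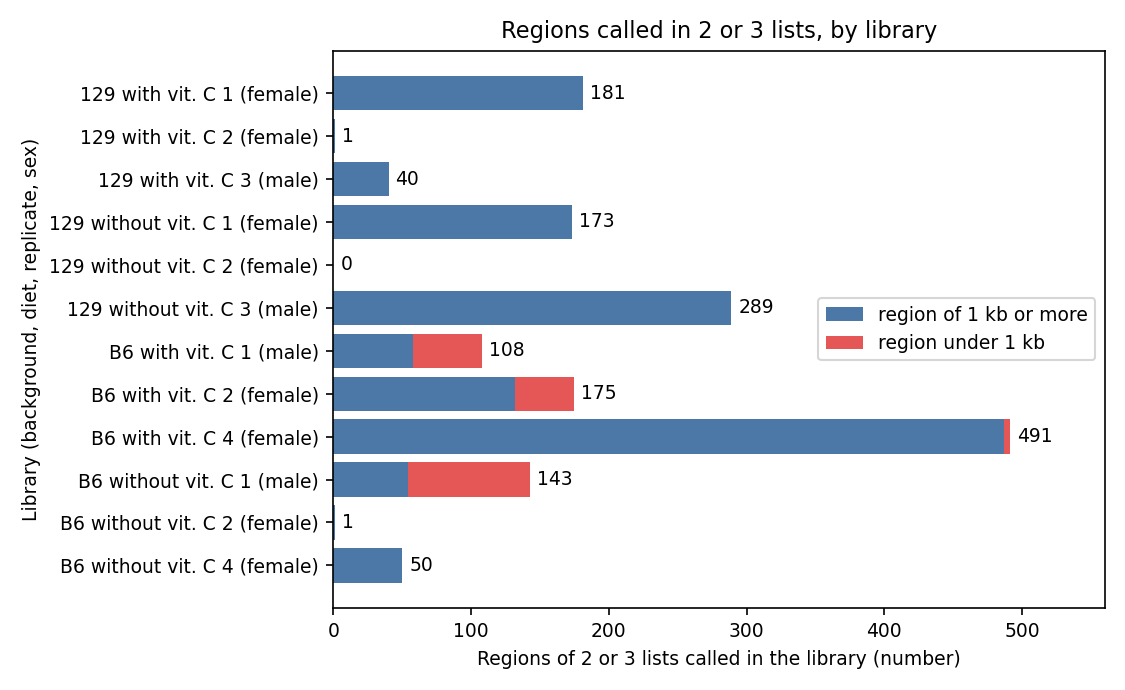
Number of the 695 regions called in each of the 12 libraries (bars), split into regions of 1 kb or more (blue) and under 1 kb (red). B6 with vitamin C replicate 4 called 491 regions, 3 libraries called 0 or 1, and the red part appears in B6 libraries and in no 129 library.

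The lists combined in 58 ways, and 37 of the 66 pairs of libraries shared at least 1 region. The most frequent pair was 129 without vitamin C replicate 3 with B6 with vitamin C replicate 4, a pair that differs in background, diet and sex. It shared 224 regions, which were 77.5% of those of the former and 45.6% of those of the latter. 129 with vitamin C replicate 1 shared 150 regions with B6 with vitamin C replicate 4 (82.9% and 30.5%), and 129 without vitamin C replicates 1 and 3 had 63.0% and 37.7% of their regions in common. B6 without vitamin C replicate 4 had 94% of its 50 regions in common with B6 with vitamin C replicate 4. Of the 695 regions, 393 were called in both backgrounds and 489 with both diets. They crossed the groups less often than all 3417 regions called in 2 or more lists did. B6 lists alone called 33.8% of the 695 and 129 lists alone 9.64%, against 7.14% and 2.55% of the 3417. The shares called with vitamin C alone and without it alone were 25.2% and 4.46%, against 5.44% and 0.907%. With only 2 or 3 calls a region crosses groups less easily, so nothing is read from these counts.

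**Figure D2:**
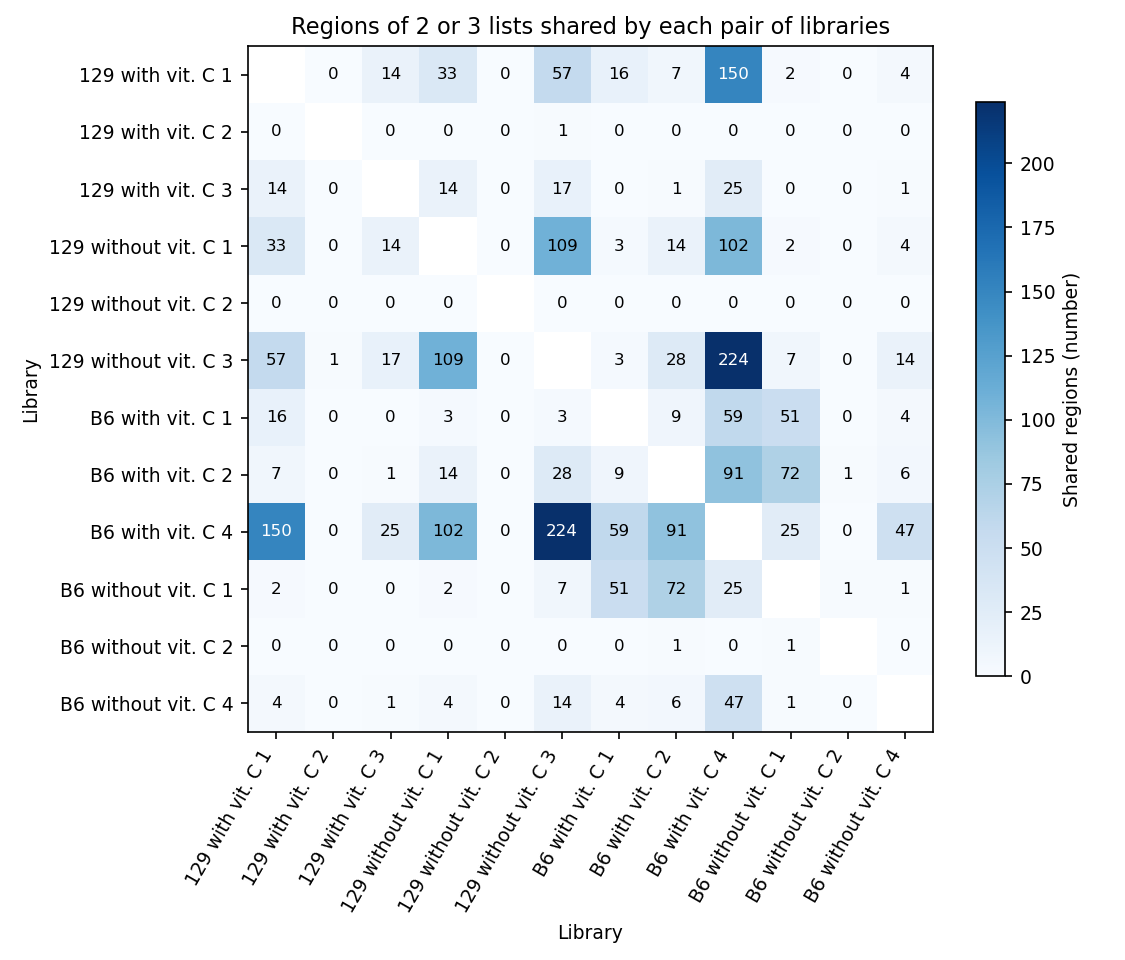
Number of the 695 regions shared by each pair of the 12 libraries (cell value and shade). The darkest cell, 224 regions, joins 129 without vitamin C replicate 3 and B6 with vitamin C replicate 4, and the rows of the 3 shortest lists hold only 0 and 1.

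Some regions were called under 1 condition and not under the other. Regions called with vitamin C and in no list without it numbered 175 of 695 (25.2%), against 5.44% of all 3417 regions called in 2 or more lists. Those called without vitamin C and in no list with it numbered 31 (4.46%, against 0.907%). B6 lists alone called 235 (33.8%, against 7.14%), and 129 lists alone called 67 (9.64%, against 2.55%). A region of 2 or 3 lists can fall in 1 condition more easily than a region of many lists, and the calls chose the regions, so nothing is read from these shares. The 491 regions of B6 with vitamin C replicate 4 weigh on the counts for vitamin C and for B6. Of the 31 regions called without vitamin C alone, 26 were called in 129 replicates 1 and 3 and in no other list, among them regions at Csf1, Pcgf3, Slc25a30, Rab3b and Nanos1; these genes were picked out after their values were seen.

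Just 8 regions were called in all 3 libraries of a group and in no other (0.234% of the 3417), and all 8 belonged to B6 with vitamin C, whose embryos shared a pregnancy code. The other groups had 0 such regions (0% of the 3417). Each of those groups held 1 of the 3 shortest lists, which called 0 or 1 of the 695 regions. Such a region could therefore hardly occur in them, and nothing is read from the 8 lying in 1 group. The 8 regions lay inside Plec (plectin, a cytoskeletal linker, 5.731 kb), at Asphd1 and Sez6l2 (5.179 kb), at Plekhg3 with Mir5135 (4.217 kb) and at Nmu (neuromedin U, a neuropeptide, 3.886 kb). Others lay at Tmem171 (3.796 kb), 0.812 kb from Arhgap40 (3.771 kb), inside Itgb7 (integrin beta 7, 3.518 kb) and inside Jarid2 (0.515 kb). Jarid2, an accessory subunit of Polycomb repressive complex 2, stood apart from the rest. Its peaks were 515, 472 and 515 bp wide in replicates 1, 2 and 4, with percentiles of 97.2, 98.3 and 99.1, whereas the mean percentiles of the other 7 regions ran from 7.75 (Plekhg3) to 51.0 (near Arhgap40). At Nmu the peaks were 2154, 1326 and 3886 bp wide, with percentiles of 48.8, 10.2 and 15.9.

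The regions were of intermediate width. The median width was 4802 bp, with a range from 34 to 18164 bp, against 2439 bp in 1 list, 8473 bp in 4 to 11 lists and 17293 bp in all 12. Merging more peaks makes a region wider by construction, so the width of single peaks was compared within each library. This does not remove the dependence, because a wider peak overlaps peaks of other lists more easily. In the 9 libraries with at least 10 of the regions, the median peak in them was narrower than the library's median peak in regions of 4 to 11 lists in 9 of 9, and its percentile was lower in 7 of 9. In 129 without vitamin C replicate 3, for example, the medians were 4546.5 against 6100 bp and percentiles of 19 against 48.6. The exceptions in percentile were B6 with vitamin C replicate 1 (68.1 against 39.4) and B6 without vitamin C replicate 1 (85.1 against 44.7). At the edges of the rule the median percentile was 24.5 in 1 list, 27.9 in 2, 22.7 in 3 and 23.9 in 4, and the median width was 2439, 4209, 5894 and 6457.5 bp.

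**Figure D3:**
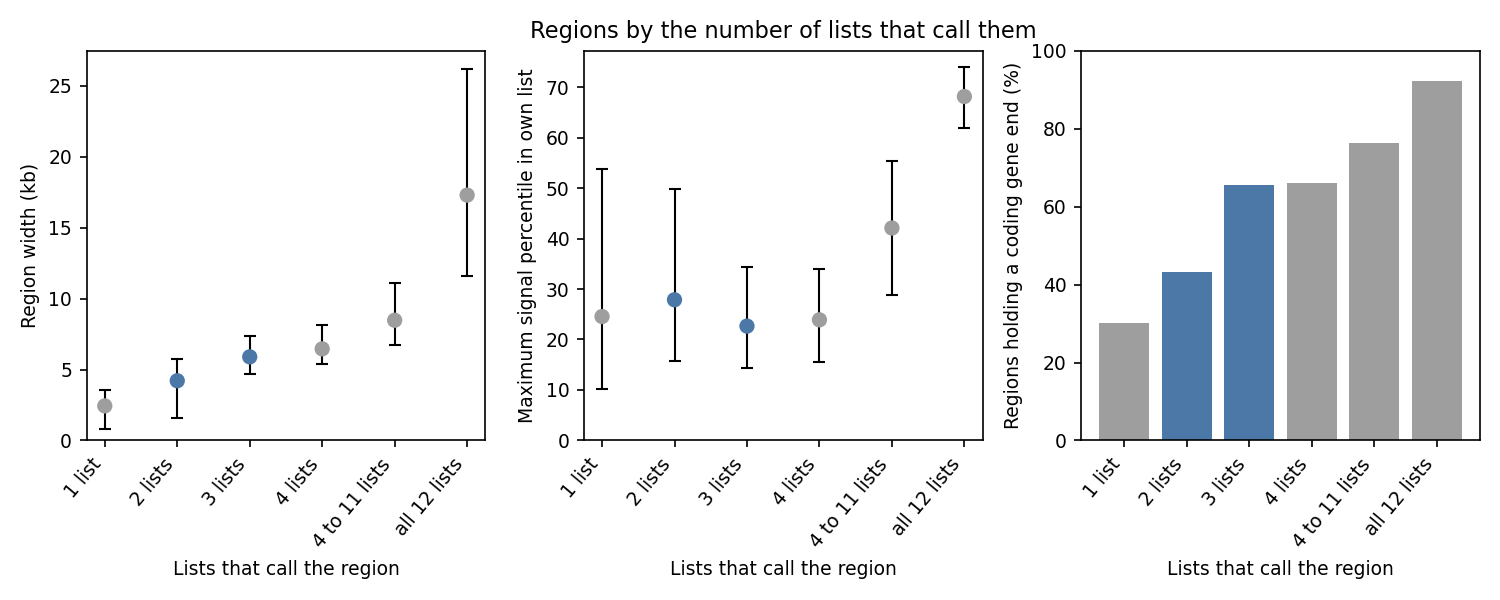
Median and interquartile range of region width (kb) and of the percentile of maximum signal, and the percent of regions that hold an end of a protein-coding gene, by the number of lists that call the region; regions of 2 and of 3 lists are blue. Width rises from 2439 bp (1 list) to 17293 bp (all 12), and the gene share from 30.2% to 92.2%, with regions of 3 and 4 lists nearly level at 65.6% and 66.1%. Wider regions have more room for a gene end.

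The 695 regions fell into a broad kind and a narrow kind. The 604 regions of 1 kb or more had a median width of 5208.5 bp and a median mean percentile of 22.7, so most of their peaks ranked low in their own lists. Of these, 359 (59.4%) held an end of a protein-coding gene, and 314 held a start listed in the promoter table. The 91 regions under 1 kb had a median width of 468 bp and a median mean percentile of 96.7, close to the top of their lists. None of the 91 (0%) held a gene end, 25 lay inside a protein-coding gene, and 55 (60.4%) touched no gene of the table. In 89 of the 91, B6 without vitamin C replicate 1 was among the lists, and 0 of them appeared in a 129 list. No genome sequence and no control list was used, so the narrow regions were not checked for repeats or background signal. Whether they carry H3K27me3 was not tested.

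**Figure D4:**
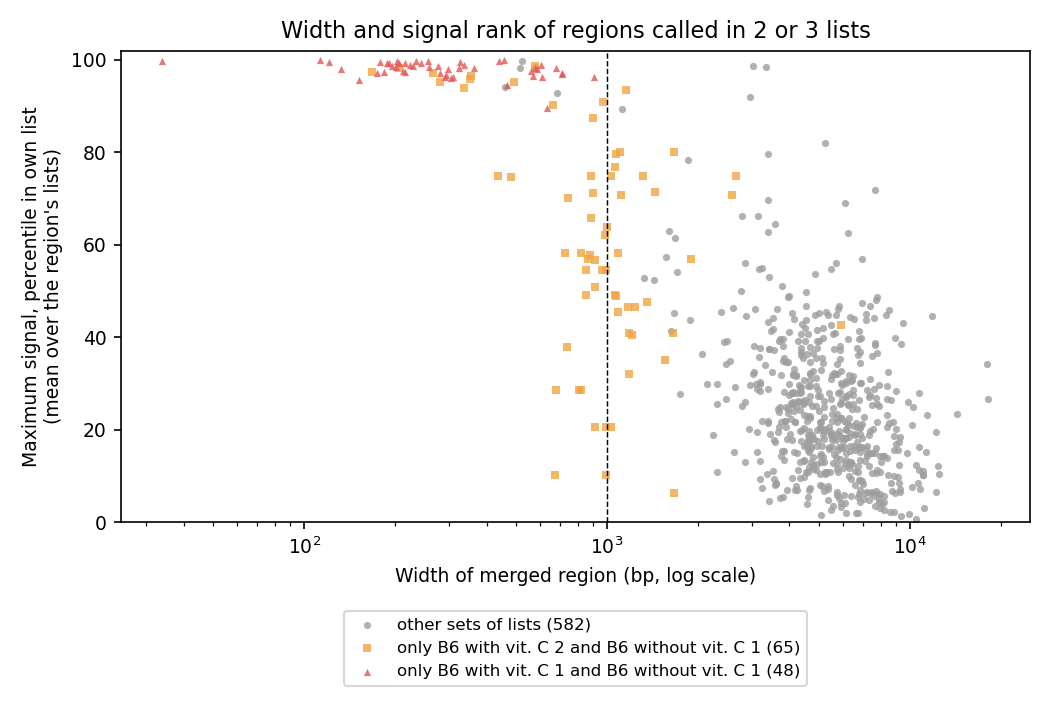
Width of each of the 695 merged regions (log scale, bp) against the mean percentile of its peaks' maximum signal in their own lists; the dashed line marks 1 kb. Grey points gather near 5 kb and below the 50th percentile, while 48 regions called by 1 pair of B6 libraries and no other (red triangles) lie under 1 kb and above a percentile of 89.

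The narrow regions came mainly from 2 pairs of libraries. B6 with vitamin C replicate 1 and B6 without vitamin C replicate 1, both from male embryos and with consecutive library numbers, were the only callers of 48 of them. These had a median width of 278 bp, a median percentile of 98.3 and a lowest of 89.5. The strongest points of the 2 peaks lay a median of 7.75 bp apart, against 366 bp over regions of 1 kb or more. This distance cannot exceed the width of the region, so a smaller value follows in part from the narrow width. The second pair, B6 with vitamin C replicate 2 and B6 without vitamin C replicate 1, also had consecutive library numbers but differed in sex. Its lists were the only callers of 38 narrow regions with a median width of 821.5 bp and a median percentile of 63.0. They were also the only callers of 27 wider ones with a median of 1183 bp. These 27 also held no gene end, and 22 of them (81.5%) touched no gene of the table. With regions that a further list called, the first pair had 49 narrow regions in common and the second 41. These 2 lists also held the shortest peaks of the 12, with medians of 1410 and 1322 bp against 3930 to 8449 bp in the other 10. The 7.34% of the 695 regions called in male embryos alone (51 regions, 48 of them narrow, against 1.49% of the 3417) are almost all of the first pair. Female embryos alone called 193 regions (27.8%, against 6%), 1 of them narrow. Whether the library series, the sex or the short peaks had a part in the narrow regions was not tested.

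Without B6 without vitamin C replicate 1, the remaining 11 lists gave 584 regions of 2 or 3 lists, of which 7 were under 1 kb. Without B6 with vitamin C replicate 1 there were 44 such narrow regions, and without B6 with vitamin C replicate 2 there were 54. Leaving out the 2 lists of short peaks gave 561 regions, 4 of them narrow.

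The top of the ranking was taken by narrow regions. The highest mean percentile, 99.96, belonged to a 457-bp region in the noncoding gene Gm31415 (chr3:49066691-49067147). It was followed by a 113-bp region inside Dnah9 (chr11:66105700-66105812; 0.112 and 0.106 kb in the 2 libraries, percentiles 99.87 and 99.92) and by the narrowest of all, 34 bp inside Dnah11 (chr12:118107462-118107495; 34 and 33 bp, both percentiles 99.83). Dnah9 and Dnah11 encode heavy chains of ciliary dynein. Other regions of the highest 10 lay inside Tent4a and the noncoding Gm36235, and 4.713 kb from Kif2b, 10.442 kb from Olfr878, 12.997 kb from Erbb4 and 8.458 kb from Csrp2. All 10 were called in B6 with vitamin C replicate 1 and B6 without vitamin C replicate 1, the one in Gm36235 also in B6 with vitamin C replicate 2. Broad regions ranked lower, with 98.6 as their highest mean percentile. A 3.348 kb region inside Pik3c3 on chromosome 18, called in 129 with vitamin C replicates 1 and 3 and 129 without vitamin C replicate 1, had a mean percentile of 98.5. A 3.027 kb region 35.927 kb from Ccr1, called in 129 without vitamin C replicates 1 and 3 and B6 with vitamin C replicate 2, had that value of 98.6. These last 2 were picked out after their values were seen.

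The widest region, 18.164 kb (chr4:135162913-135181076), lay at Runx3, a Runt-family transcription factor of neurons and lymphocytes. It was a single peak of 18.164 kb in 129 with vitamin C replicate 1 and 2 peaks of 5.323 and 4.36 kb in B6 with vitamin C replicate 4, and it ended 1.485 kb from a 25.626 kb region at Runx3 that all 12 lists called. A 14.274 kb region lay over the noncoding D930007P13Rik, 1.533 kb from a 30.984 kb region of all 12 lists. Others of the widest 10 lay inside Ptprt (12.424 kb), 12.73 kb from Myof (12.39 kb), at Cacng4 (12.232 kb), over Gm13261 near Sfmbt2 (12.186 kb), near Sprr2a3 (11.798 kb), at Atoh8 (11.341 kb) and at Nrarp, a Notch target that dampens Notch signalling (11.328 kb). A 129 library was among the callers of all 10. Of the 604 regions of 1 kb or more, only 23.8% were called in B6 lists alone, so most had a 129 caller.

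Genes were assigned to the most shared region at either of their ends, since the gene table carries no strand. In 374 of 20665 protein-coding genes (1.81%) that region was called in 2 or 3 lists, and in 621 (3.01%) in all 12. The gene families were lists set in view of earlier results, so their counts are descriptions. Homeobox genes, which specify position and cell type, were seldom found at this level. Of 186 homeobox genes 1 (0.538%) was in a region of 2 or 3 lists, while 119 (63.98%) were in regions of all 12. Of 83 Sox, Fox, T-box, Gata and Zic genes 2 (2.41%) were in regions of 2 or 3 lists and 33 in regions of all 12. Of 68 basic helix-loop-helix genes the numbers were 4 (5.88%) and 18.

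Otx2, the 1 homeobox gene, specifies forebrain and midbrain and is a marker of the tissue itself. It had a region of 2 or 3 lists at each end. The region over its start (chr14:48663435-48672308, holding the promoter printed above) was called in 129 with vitamin C replicate 1, as a peak of 8.874 kb at percentile 2.35, and in B6 with vitamin C replicate 4, as a peak of 3.158 kb at percentile 28.9. The strongest points lay 3944 and 1339 bp from the start. The region at the other end (chr14:48650456-48656810) was called in 129 with vitamin C replicates 1 and 3 (6.355 and 5.141 kb, percentiles 5.33 and 5.01) and in B6 with vitamin C replicate 4 (5.55 kb, percentile 28.9). All of these lists come from embryos with vitamin C, and the peaks ranked low in them. The other 3 libraries with vitamin C had no peak in either region. Among all regions of 2 or 3 lists, 25.2% were called with vitamin C alone. B6 with vitamin C replicate 4, a caller at both ends of Otx2, called 80.6% of those of 1 kb or more. The calls at Otx2 therefore say little about diet, and a link between them was not tested.

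Among the other transcription factors, Sox30, a Sox factor of the male germ line, was called in 129 alone: 8.965 kb at percentile 18.2 and 4.502 kb at 8.11 in 129 with vitamin C replicates 1 and 3, and 3.335 kb at 33.9 in 129 without vitamin C replicate 3. Foxo1 was called in 129 without vitamin C replicate 3 (4.07 kb, percentile 11.3) and B6 with vitamin C replicate 4 (3.631 kb, 8.40), with strongest points 1620 and 1722 bp from the start. Atoh8 was called in 129 with vitamin C replicate 1 (7.063 kb, 10.1), 129 without vitamin C replicate 3 (11.341 kb, 22.9) and B6 with vitamin C replicate 4 (3.74 kb, 36.7). Mesp2, a factor of somite segmentation, was called in 129 without vitamin C replicates 1 and 3 (4.782 and 4.167 kb, percentiles 8.91 and 22.9) and B6 with vitamin C replicate 4 (4.014 kb, 24.5), with strongest points 84, 435 and 237 bp from the start. Ascl4, whose promoter holds few CG, was called in 129 without vitamin C replicate 1 (4.874 kb, 35.9) and B6 with vitamin C replicate 2 (0.81 kb, 53.7). Hey1, a Notch effector, lay in an 11.058 kb region of 129 with and without vitamin C replicate 1 and B6 with vitamin C replicate 4, with a mean percentile of 10.3.

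Signalling genes included ligands, antagonists and receptors. Of 94 morphogen ligands and antagonists, 7 (7.45%) had their most shared region in 2 or 3 lists and 24 in all 12. Secreted antagonists among them were Wif1 and Sfrp1 of the Wnt pathway and Nog of the BMP pathway. Wif1 peaks were 8.372 kb (percentile 22.5) in 129 with vitamin C replicate 1, 6.34 kb (6.47) in 129 without vitamin C replicate 1 and 1.744 kb (40.7) in B6 with vitamin C replicate 4, with strongest points 234, 328 and 82 bp from the start. Nog was called in 129 without vitamin C replicates 1 and 3 and in B6 with vitamin C replicate 4, at percentiles of 39.4, 22.9 and 11.7. Sfrp1 was called in 129 without vitamin C replicate 3 and B6 with vitamin C replicate 4, at 5.96 and 3.58. The ligands were Fgf5 (5.737 kb, 3 lists, mean percentile 32.1), Gdf10 (5.503 kb, 3 lists, 18.8), Wnt5b (4.256 kb, 2 lists, 11.3) and Fgf14 (4.115 kb, 2 lists, 26.0), the last an intracellular family member of neurons. Of 47 receptors and Notch pathway genes the 1 in such a region was Fzd5, a Wnt receptor of the eye field, called in 129 with vitamin C replicate 1 (percentile 5.33) and in B6 with vitamin C replicates 1 and 4 (13.1 and 57.9). Of 68 axon guidance genes the 4 (5.88%) were Efna1, Plxnc1, Ephb1 and Sema3d, with mean percentiles of 12.5, 16.1, 22.3 and 24.5.

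Genes of differentiated neurons were also found. Of 162 ion channel genes 14 (8.64%) were in regions of 2 or 3 lists, 59 in regions of 4 to 11 and 7 in regions of all 12. Among the widest were those at the potassium channel genes Kcnb2, Kcng4 and Kcnk3, the proton-gated channel gene Asic2 and the calcium channel subunit genes Cacng4 and Cacng5. Cacng4 was called in 129 with and without vitamin C replicate 1 (12.127 and 8.588 kb, percentiles 18.2 and 11.8) and in B6 with vitamin C replicate 4 (10.734 kb, 28.9). Its neighbour Cacng5 was called in 129 without vitamin C replicates 1 and 3 and in B6 with vitamin C replicate 4, at percentiles of 21.3, 55.1 and 66.1. B6 with vitamin C replicate 4 was among the lists of all 14 genes. That library called 80.6% of the 604 regions of 1 kb or more, so this count says little about the channel genes. Of 98 neurotransmitter receptor genes 5 (5.10%) were in regions of 2 or 3 lists, among them Grin2b, Drd1, Htr4 and Glrb.

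The other lists are set against the 1.81% of all genes. As 83.1% of all genes had no region, such shares also depend on how often a family had any region. Among genes with a region, 10.7% of all genes were in 2 or 3 lists. That share was highest in genes for DNA methylation and vitamin C dependent enzymes (66.7%, resting on 2 genes) and Polycomb complex genes (30%, 3 genes). Next came Zfp genes (22.2%, 6 genes), solute carriers (15.6%), ion channels (15.1%), axon guidance genes (12.9%) and immune genes (12%). It was lower in morphogen genes (10.1%), cadherins and protocadherins (9.76%), basic helix-loop-helix genes (8%) and neurotransmitter receptors (7.46%). Lower still were collagens and laminins (5.56%), receptors and Notch pathway genes (5%), Sox, Fox, T-box, Gata and Zic genes (3.39%) and homeobox genes (0.606%). Solute carriers had 14 of 338 (4.14%), cadherins and protocadherins 4 of 104 (3.85%, Cdh1 and Pcdh1 among them), immune surface and cytokine genes 6 of 278 (2.16%, Cd34 and Il13 among them), collagens and laminins 1 of 53 (Col25a1) and Zfp genes 6 of 410 (1.46%). Olfactory and vomeronasal receptors (1467 genes), imprinted genes (43), neural tube closure genes (38) and housekeeping genes (28) had 0. Genes of the Polycomb machinery and of vitamin C dependent enzymes were few but present. Of 33 Polycomb complex genes 3 were in such regions: Phc2 (B6 with vitamin C replicates 1 and 4, percentiles 3.15 and 5.81), Pcgf3 (129 without vitamin C replicates 1 and 3, 8.91 and 37.9) and Auts2 (mean 37.4). Of 34 genes for DNA methylation and vitamin C dependent enzymes 2 were: Tet2 and P4ha3. Tet2, a dioxygenase that oxidises 5-methylcytosine, was called in 129 with vitamin C replicate 3 (5.034 kb, percentile 1.30) and 129 without vitamin C replicate 1 (3.589 kb, 14.8), so in both diets. P4ha3, a subunit of collagen prolyl hydroxylase, was called in 129 with vitamin C replicate 1, 129 without vitamin C replicate 3 and B6 with vitamin C replicate 4, at percentiles of 8.46, 19 and 33.0.

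**Figure D5:**
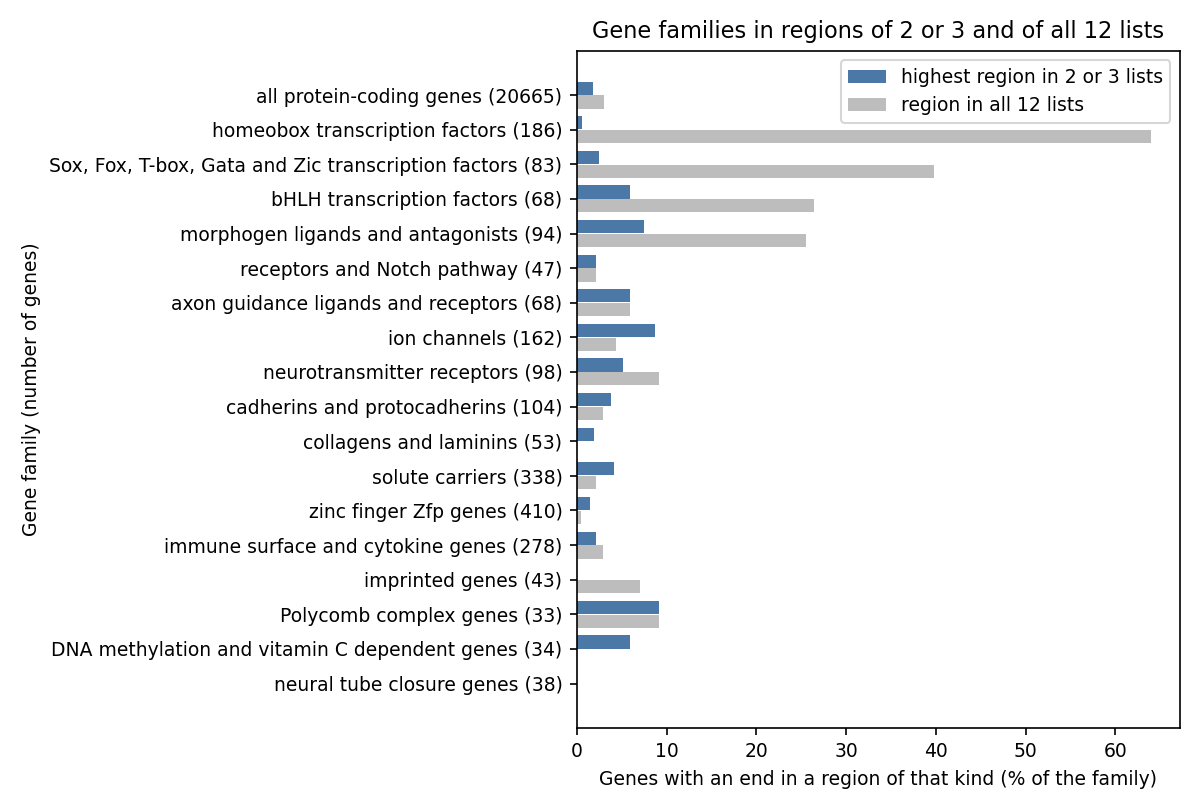
Percent of the genes of each family whose most shared region was called in 2 or 3 lists (blue) or in all 12 (grey), for all protein-coding genes and the families with at least 5% of genes in a region. Ion channels (8.64% against 4.32%) have a longer blue than grey bar, and homeobox genes (0.538% against 63.98%) the longest grey one.

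Where a region held the start of exactly 1 protein-coding gene of the promoter table, the distance from the strongest point of its peaks to that start was taken. Both points lie in the region, so the distance cannot exceed its width. In 277 such regions of 2 or 3 lists the median distance was 729.5 bp (interquartile range 389 to 1125.75), and 69.3% lay within 1 kb. The median was 481.5 bp in regions of 1 list, 816 bp in 4 to 11 lists and 2114 bp in all 12, where 21.2% lay within 1 kb. These distances rose with the median width of the regions (2439 bp in 1 list, 4802 bp in 2 or 3, 8473 bp in 4 to 11 and 17293 bp in all 12). Distance and width were not separated.

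Most of the 695 regions lay far from the regions that all 12 lists called. The median distance between edges was 1.38 Mb (interquartile range 0.444 to 4.41), against 1.63 Mb for regions of 1 list and 1.06 Mb for regions of 4 to 11. Of the 695, 66 (9.5%) lay within 100 kb, against 10.3% in 1 list and 12.0% in 4 to 11 lists. Broad regions had a median distance of 1.26 Mb and narrow ones 3.64 Mb. The 66 regions lay beside 59 of the 437 regions of all 12 lists, and 7 of these had 2 of them, at Plec, Elfn2, Dll4, Runx3, Msx1, Gm42517 and Msx3. The set of 437 is bounded by the shortest list: 702 regions were called in all 11 lists other than B6 without vitamin C replicate 2, and 15.0% of the 695 lay within 100 kb of one of those, at a median distance of 0.875 Mb.

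Within 10 kb lay 16 regions (2.30%, against 1.76% in 1 list and 1.93% in 4 to 11 lists). The nearest, 0.758 kb from a 36.451 kb region over the class I histocompatibility genes H2-Q6 and H2-Q7, spanned 6.772 kb and was called in 129 without vitamin C replicates 1 and 3. Others, picked out after their values were seen, flanked the regions of Ihh (5.826 kb away), a hedgehog ligand, of Tlx3 (6.341 kb), a homeobox factor of sensory neurons, and of T (6.648 kb), the brachyury factor of mesoderm. Tnfrsf13c, a receptor of B cells, had a 4.372 kb region 2.519 kb from that of Shisa8, with percentiles of 29.8 and 48.1 in B6 with vitamin C replicates 1 and 4 and 9.54 in B6 without vitamin C replicate 4. The 5 farthest lay at Fgf14 (44.9 and 44.4 Mb), Slc15a1 (41.7 Mb), Samd5 (32.9 Mb) and Alcam (31.9 Mb). B6 with vitamin C replicate 4 was a caller of all 5, and of 80.6% of the 604 regions of 1 kb or more.

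Properties other than the number of lists were compared between the diets and the backgrounds over the libraries. They are not all independent of the rule. It used the positions of peaks, which set their width, and the counts of lists, which also define the regions of all 12. Each region is shared by 2 or 3 libraries, so the values of the libraries are not independent of each other either. 129 without vitamin C replicate 2 had none of the regions and drops out, which leaves 11 libraries and 200 relabellings (smallest possible p 0.005). The median width of a library's own peaks in the regions was 6907, 8797 and 4862 bp in 129 with vitamin C, 4999 and 4546.5 bp in 129 without, 1994, 1027.5 and 3513.5 bp in B6 with vitamin C, and 705, 2969 and 3796 bp in B6 without. The values of 8797 bp (129 with vitamin C replicate 2) and 2969 bp (B6 without vitamin C replicate 2) each rest on 1 region. All 5 libraries of 129 lay above all 6 of B6, while the diets overlapped. On a log2 scale the group means were 12.7 ± 0.43 (SD, n = 3) and 12.2 ± 0.097 (n = 2) in 129 with and without vitamin C, and 10.9 ± 0.89 (n = 3) and 10.96 ± 1.31 (n = 3) in B6. The difference of B6 from 129 was -1.52 (exact permutation test, two-sided, p = 0.02; 0.16 after Benjamini-Hochberg adjustment over 8 tests), which did not pass the threshold of 0.05. Over all peaks of the lists the same difference was -1.09 (exact permutation p = 0.015), so narrower peaks were not limited to these regions. Without against with vitamin C the difference was -0.22 (exact permutation p = 0.63, adjusted 0.72).

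The other properties did not pass either. Median percentiles of the peaks ranged from 10.2 to 30.0 in 129 and from 13.2 to 97.9 in B6, a difference of 36.5 (exact permutation p = 0.095, adjusted 0.38), and the diets differed by 10.8 (p = 0.51, adjusted 0.72, by the same exact test). The share of a library's regions within 100 kb of a region of all 12 lists differed by -1.36 percentage points between B6 and 129 (exact permutation p = 0.575, adjusted 0.72) and by -1.56 between the diets (p = 0.62, adjusted 0.72, by the same exact test). Without B6 without vitamin C replicate 2, the shortest list, these differences became -17.6 and -17.1 points. Distances then ran to the regions called in all remaining lists, a different set, so these values are not like for like. The share holding a gene end ran from 7.69% in B6 without vitamin C replicate 1 to 68.0% in B6 without vitamin C replicate 4 among libraries with at least 10 regions. It differed by -17.2 points between the backgrounds (exact permutation p = 0.36, adjusted 0.72) and by 3.89 between the diets (p = 0.865, adjusted 0.865, by the same exact test). The effect of diet in 129 minus that in B6 had exact permutation p-values from 0.095 to 0.56 over the 4 properties. Libraries with 1 region enter these means with that region's value.

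Membership depended on which peaks of the lists were kept. When each list was held to the 748 peaks of largest total signal, the length of the shortest, 216 regions were called in 2 or 3 lists and 22 of them overlapped one of the 695. When lists kept the peaks at or above their median maximum signal, 518 regions were called in 2 or 3 lists, 103 of them overlapping one of the 695.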

How the data were processed

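The peak lists of 12 H3K27me3 CUT&Tag libraries were used; 4 IgG samples and 2 of the B6 H3K27me3 samples were not analysed here. Per the submitters' processing notes, cutadapt, Bowtie2, Picard and SEACR were used with mm10; their order, versions, settings and any use of IgG were not given in the sources used here. A deposited list has 6 columns, with position, total signal, maximum signal and its location for each peak of a single library. These signal values were deposited by the authors with no common scale stated, so they served only to rank peaks within a list, and depth is unknown.

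Peaks on chromosomes 1 to 19 (30522 of 31753) were merged where they overlapped by at least 1 bp. Distances run between region edges. Genes and 300-base promoters came from RefSeq (GRCm38.p6), whose gene table gives no strand. Of 21900 protein-coding genes 17492 had a promoter there. Coordinates are 1-based.

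Labels of diet were permuted within background, and those of background within diet, in exact two-sided tests over libraries (200 relabellings; the design foresaw 400, before a library without any of the regions dropped out), with Benjamini-Hochberg adjustment over 8 tests. Each library is 1 embryo's headfold per the labels, and some embryos share a pregnancy, so p-values measure the spread between these samples. The merge and the test were tested on simulated data. The regions, gene lists and tests were chosen with earlier results of these data known.

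Named by rule were the 10 widest regions, those of all 3 libraries of a group and no other, the 10 of highest mean percentile, the 5 nearest to and 5 farthest from regions of all 12 lists, up to 8 genes per family by width, and, from the first 3 kinds of region and the transcription factor families, up to 8 promoters by mean percentile. A few genes that the rule names are not reported here. Genes named outside it are said to be so.

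The settings tried were peaks joined below 5 kb, 50% coverage of the region, a minimum peak width of 1 kb, maximum signal no lower than the list's median, equal lists, other distances and gene windows, 2 or 3 lists apart, total signal, other chromosomes, pregnancies averaged and each library left out. Regions of 1 kb or more, libraries with at least 10 regions, omission of the 2 lists of short peaks and a block of consecutive library numbers were added after seeing the data. The tools were SciPy 1.17.1, pandas 2.3.3, NumPy 2.4.6 and Matplotlib 3.10.9 under Python 3.11.15.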

Additional observations from a re-analysis of the deposited data

Results flagged for a closer look

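Outside chromosomes 1 to 19, which the comparisons do not use, 56 regions were called in 2 or 3 lists: 50 on chromosome X, 2 on chromosome Y and 4 on unplaced scaffolds. On chromosome X the libraries that called most were B6 with vitamin C replicate 2 (34 regions), 129 without vitamin C replicate 1 (27) and 129 with vitamin C replicate 1 (20), all from female embryos. The other 5 female libraries called 10, 0, 10, 0 and 1, and the 4 male libraries 0, 4, 2 and 8, so the sexes overlapped. No control list was used, so there is no level to set these numbers against.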

How the results depend on the processing

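The 695 regions became 216 with equal lists. Those under 1 kb (91) became 0 with peaks of at least 1 kb, as follows from that cut-off, 23 with equal lists, 4 without the 2 lists of short peaks, and 7 to 93 with single libraries left out; those of 1 kb or more (604) became 193 with equal lists. With single libraries left out the total ran from 584 to 826. The share within 100 kb of a region of all 12 lists (9.5%) became 6.33% at 50 kb and 15.1% at 200 kb. The share holding a gene end (51.7%) became 66.2% with equal lists, 43.2% in 2 lists, 65.65% in 3 lists, 61.01% with 5 kb added and 59.4% for regions of 1 kb or more.

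Over 186 alternatives of the 8 tests, 0 passed the threshold and 166 kept the direction. The 20 reversals were as follows. Between diets, width turned to 0.0697 in 2 lists; the percentile turned to -10.6 with equal lists and -5.88 in 2 lists; the gene share turned to -0.964 with peaks of at least 1 kb, -5.26 with peaks above the median, -10.8 in 3 lists, -1.17 for regions of 1 kb or more and -1.80 without the lists of short peaks, and ran from -17.5 to 9.88 with single libraries left out. Between backgrounds, the share near regions of all lists turned to 0.71 with peaks of at least 1 kb and 0.427 in 3 lists, and ran from -17.6 to 1.02 with single libraries left out; the lowest value came without B6 without vitamin C replicate 2, the shortest list. With single libraries left out, the share near such regions ran from -17.1 to -0.608 between diets, the percentile from 2.63 to 25.4 between diets and 23.4 to 47.5 between backgrounds, and the gene share from -33.7 to -5.53 between backgrounds. With a library left out, the regions of all lists are those called in all remaining lists, so the share near them is measured to another set. The cause was not tested. The adjusted p of the width difference between backgrounds ran from 0.08 to 0.336. Replicate numbers were given in accession order and pair no embryos, but 6 pairs of libraries of opposite diet, alike in background and sex, have consecutive library numbers. With these as a replicate block (5 pairs with values, exact test over 32 sign changes, smallest possible p 0.0625), the diet differences were -0.084 in width, 15.5 in percentile, -3.79 in the share near regions of all lists and -8.46 in the gene share, which thus turned. Deviations of the calls from group means, over 3417 regions, correlated from -0.0281 to 0.353 within pairs, and in 1 of 6 pairs both libraries correlated best with each other, so the numbers were not taken to pair the libraries. Depth is unknown, so a missing call may lie below detection.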
